A study of Mus musculus with 44 samples.

Results

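The genes described here handle fatty acids in the mouse ovarian follicle: they set how much fatty acid is released outside the cell, taken up, carried through the cytosol and stored in or freed from lipid droplets. The 10 members were chosen by gene symbol: Angptl4, Lpl, Cd36, Fabp3, Fabp5, Plin2, Plin3, Plin4, Hilpda and Pnpla2. All 10 have a row among the 22674 genes of the maturation table and among the 18274 genes of the ovulation table. The series holds 44 libraries of ovarian follicles from wild-type CD-1 animals, an outbred mouse strain. In the maturation window, 11 control libraries were given the solvent DMSO and 10 libraries PFNA (perfluorononanoic acid, a perfluorinated fatty acid used in industry). In the ovulation window all libraries had received hCG (human chorionic gonadotropin, the hormone used to trigger ovulation), 12 as controls with hCG alone and 11 with hCG and PFNA. Mouse age, PFNA dose, exposure time and the number of follicles or animals in a library are not given in the sources used here, so the p-values measure the spread between these libraries.

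Lipoprotein lipase (LPL) frees fatty acids from circulating triglyceride, ANGPTL4 inhibits it, and CD36 takes fatty acids up at the cell membrane. The fatty acid-binding proteins carry them in the cytosol, and the perilipins coat the droplets in which they are stored as triglyceride. PNPLA2 (adipose triglyceride lipase) opens the breakdown of stored triglyceride, and HILPDA inhibits PNPLA2. Several of these genes, Angptl4 and Plin2 above all, are textbook targets of the fatty acid-activated PPAR receptors, and droplets in granulosa and theca cells hold lipid used for steroid synthesis.

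In both windows Angptl4, Cd36 and Plin2 rose with PFNA. Their promoter sequences are shown where RefSeq (GRCm38.p6) gave one, because these members moved the same way in both windows. Entries were found for 7 of the 10 members, and those of Plin2 and Cd36 are printed from 250 to 11 bases before the start site. Capitals mark the letters TGACCT, which read AGGTCA on the other strand, the half-site bound by nuclear receptors such as PPAR with its partner RXR. Plin2 is at chr4:86670070-86670309 and Cd36 at chr5:17835907-17836146, both on the minus strand of GRCm38.p6, and neither stretch overlaps an exon of its gene in GENCODE M21. The Cd36 stretch lies before an internal start site, inside the gene as the maturation table bounds it, and not before the gene's first start.
Plin2: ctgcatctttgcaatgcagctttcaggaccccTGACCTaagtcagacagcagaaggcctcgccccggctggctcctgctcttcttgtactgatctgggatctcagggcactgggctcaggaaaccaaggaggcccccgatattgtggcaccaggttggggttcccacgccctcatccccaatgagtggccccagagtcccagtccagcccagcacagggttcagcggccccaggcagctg
Cd36: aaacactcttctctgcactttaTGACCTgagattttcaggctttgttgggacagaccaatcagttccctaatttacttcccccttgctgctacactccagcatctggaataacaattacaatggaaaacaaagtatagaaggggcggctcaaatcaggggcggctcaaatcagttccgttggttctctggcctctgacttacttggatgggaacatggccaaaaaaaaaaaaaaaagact
Counted from the start site, the first base of the half-site is at -218 in Plin2 and at -228 in Cd36. AGGTCA was searched on both strands and found in 2 of the 7 members with an entry, not in Fabp3, Hilpda, Pnpla2, Plin3 or Plin4, and 13.5% of 32851 promoter windows of the same length hold it. The full PPAR element, 2 copies of AGGTCA with 1 free base between them, contains the half-site and was found in 0.0335% of the windows and in none of the members' windows. A match is a stretch of letters, not a shown binding site, and Angptl4, Lpl and Fabp5 had no entry.

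Markers of the cell types a follicle sample can hold set 3 maturation PFNA libraries apart. Oocyte markers (12 genes) summed to 133 to 202 TPM in maturation controls and to 0.732 to 350 TPM with PFNA, with 10 of 10 tested lower. PFNA replicates 1, 2 and 10 held an oocyte share of 0.0127% to 0.0350% of the total, where the controls held 0.0133% to 0.0202% and the other 7 PFNA libraries at most 0.000293%. The 8 granulosa markers summed to 32509 to 52442 TPM in controls and 14310 to 39063 TPM with PFNA (4 lower). Most of the granulosa sum was Inha, with means of 34970 TPM in controls and 21742 TPM with PFNA. The 7 theca and stroma markers summed to 377 to 1136 and 278 to 1287 TPM (1 lower). Macrophage markers (9 genes) summed to 8.92 to 89.0 and 40.4 to 212 TPM (2 of 5 tested higher), and endothelial markers (7 genes) to 7.01 to 237 and 28.0 to 239 TPM (0 of 5 called by limma, and 0 at an unadjusted p under 0.05). After hCG, oocyte markers summed to 72.4 to 291 CPM in controls and 18.4 to 455 CPM with PFNA (6 of 11 higher), with PFNA replicate 5 the lowest. Granulosa markers summed to 12424 to 19337 and 10784 to 17385 CPM (5 higher, 2 lower). Most of that sum was Inha and Inhba, with means of 7352 and 6698 CPM in controls and 5538 and 5332 CPM with PFNA. Theca and stroma markers summed to 115 to 1042 and 696 to 1679 CPM (4 higher, 1 lower). Macrophage markers summed to 2.39 to 144 and 4.45 to 173 CPM (3 of 9 higher) and endothelial markers to 37.7 to 133 and 39.9 to 382 CPM (6 of 7 higher). Of 7 adipocyte markers 6 had a row in the ovulation table, with sums of 9.75 to 30.7 CPM in controls and 7.06 to 22.2 CPM with PFNA (1 of 2 tested lower). Lep and Cidec were listed at 0 in every control and Adipoq reached at most 0.772 CPM in any library. Fabp4 ran from 4.36 to 18.1 CPM in controls, with means of 8.81 CPM in controls and 7.49 CPM with PFNA. Retn had means of 7.06 CPM in controls and 1.32 CPM with PFNA, so the lower sum follows these genes. The means of Plin1 (0.106 and 1.80 CPM), Adipoq (0.00672 and 0.394), Cidec (0 and 0.167) and Lep (0 and 0.110) went the other way. These low genes were not tested. In the maturation table the adipocyte markers with a row were Plin1 and Fabp4, with sums of 2.53 to 10.3 TPM in controls and 10.2 to 26.9 TPM with PFNA. Of these Plin1, also a gene of the droplet list, was called higher, and the part of this marker change in the members' results was not tested. In whole follicles, fewer cells of a type and less RNA per cell cannot be told apart.

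Before any exposure effect, the members differed widely in level. Values of the maturation table are TPM (transcript abundance corrected for length, with 1 total for every library), so they can be compared between genes. Fabp5 was highest in the controls, at 272 ± 37.4 TPM (SD, n = 11), and no control library overlapped the next gene. Pnpla2 (95.6 ± 7.05), Angptl4 (87.0 ± 12.7), Plin3 (57.4 ± 20.3) and Lpl (51.5 ± 11.6) followed, and each overlapped its neighbour in this order. Fabp3 (34.0 ± 8.66) came next, overlapping Lpl before it and Hilpda (27.1 ± 5.56) after it. Plin2 (7.90 ± 3.29), Cd36 (2.92 ± 0.675) and Plin4 (0.705 ± 0.361) were the lowest, each below every library of the gene before it. The ovulation table holds counts, given here as TMM-scaled CPM without length correction, so members are not ranked there.

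Of the 9 members tested in the maturation window, 5 rose and 1 fell at a limma adjusted p under 0.05, against 13.3% of all 13712 genes higher, 16.1% lower and 29.4% called in either direction. Plin4 stayed under the mean of 1 TPM that a gene needed to be tested. The median log2 fold change of the 9 was 0.24, beside 0.02 over all genes. In the ovulation window 6 of 10 rose and 1 fell by edgeR's quasi-likelihood test, where 38% of 13441 genes rose, 35.2% fell and 73.2% were called in all. The share of members called there is near that of all genes, so it says nothing particular about them. The members' median log2 fold change was 0.78, beside 0.04 over all genes. Control and PFNA libraries did not overlap for 1 of the 9 members tested in the maturation window (1.28% of all genes). In the ovulation window they did not overlap for 3 of 10 (26% of all genes). The members were chosen with earlier results of these data known. These shares and medians therefore describe the members and are not an independent test of them.

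**Figure D1:**
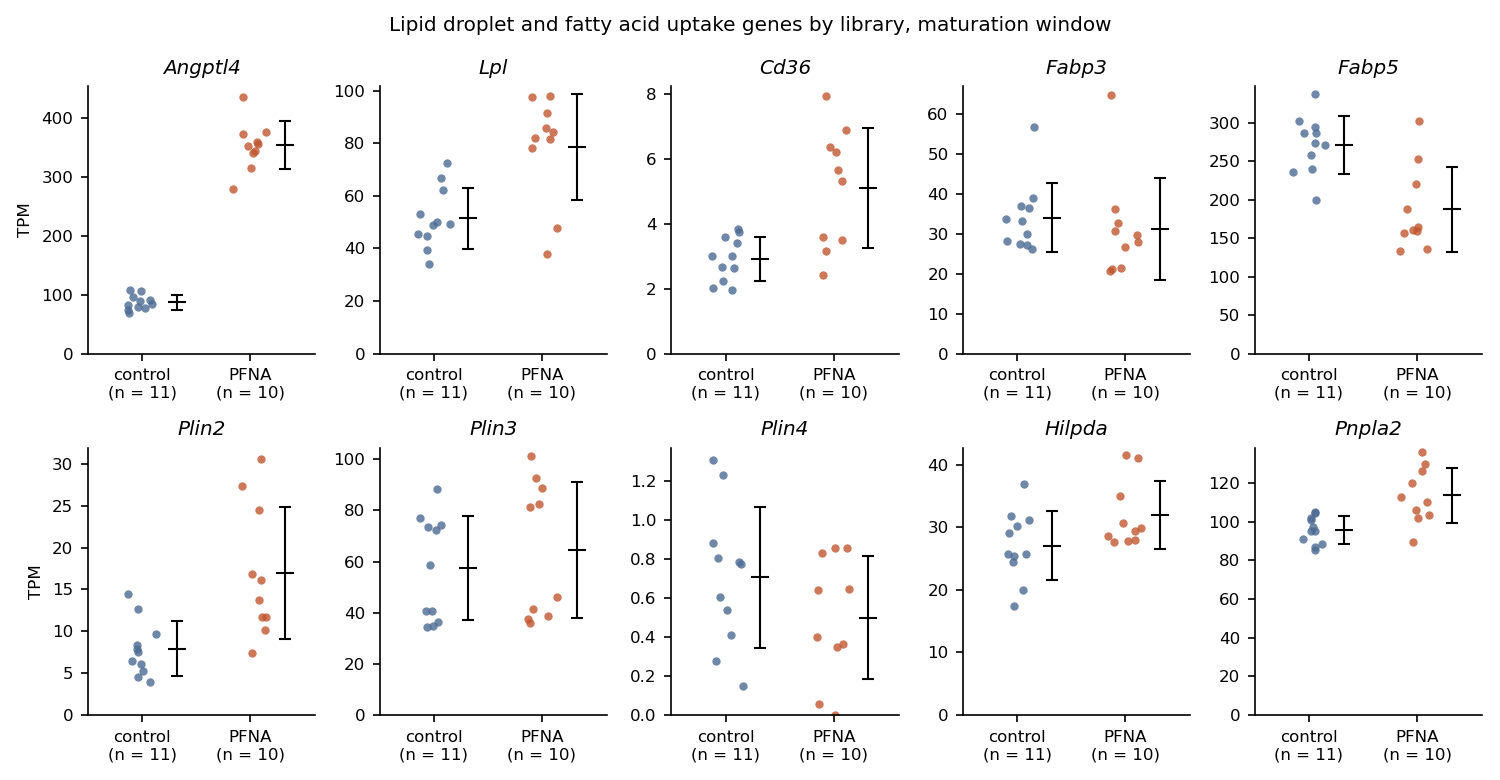
Level of each member in every maturation library (TPM, each vertical axis starting at 0) for 11 control and 10 PFNA libraries, with points for libraries and bars for mean ± SD. Angptl4 is the member whose groups do not overlap, and Plin3 falls into a low and a high set of libraries in both groups.

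Angptl4 (chromosome 17, 33773750 to 33781830 in GRCm38, as are the positions that follow), the secreted LPL inhibitor, ran from 69.0 to 108 TPM in maturation controls with a median of 83.9. With PFNA it ran from 280 to 437 TPM with a median of 355. Each PFNA library lay far above each control, and the ratio of means was 4.07 (log2 fold change on the log2(TPM + 1) scale 2.02, SE 0.081, limma adjusted p = 3.9e-13). The spread between libraries was small, with a coefficient of variation of 14.6% in controls and 11.5% with PFNA. After hCG, Angptl4 ran from 96.7 to 134 CPM in controls (median 114) and from 176 to 375 CPM with PFNA (median 268). The groups again did not overlap, but the rise was smaller (2.43-fold by edgeR, log2 fold change 1.28, SE 0.11, adjusted p = 6.5e-11). PFNA replicate 6 was the lowest PFNA library after hCG and replicate 5 the highest.

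Lpl (chromosome 8, 68880491 to 68907448), the enzyme that ANGPTL4 inhibits, rose during maturation. Controls ran from 34.0 to 72.4 TPM (median 49.3) and PFNA libraries from 37.9 to 98.2 TPM (median 83.3). PFNA replicates 1 and 2, at 37.9 and 47.7 TPM, lay among the controls and the other 8 above every control (log2 fold change 0.57, SE 0.16, limma adjusted p = 0.0099). Without these 2 libraries the log2 fold change was 0.78, and 0.77 with PFNA replicate 10 left out as well. After hCG, Lpl ran from 324 to 558 CPM in controls and from 192 to 764 CPM with PFNA, with medians of 390 and 397. PFNA replicates 6 and 5 were highest and replicates 10 and 2 lowest, on either side of the whole control range. The log2 fold change was 0.07 (95% interval -0.29 to 0.44, edgeR adjusted p = 0.72), and it was -0.01 without PFNA replicate 5 and -0.05 without PFNA replicate 6. Without PFNA replicate 10 or 2, the low libraries, it was 0.15.

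Cd36 (chromosome 5, 17781690 to 17888801), the membrane fatty acid receptor, was scarce during maturation. Controls ran from 1.97 to 3.83 TPM (median 3.01) and PFNA libraries from 2.41 to 7.95 TPM (median 5.49), so 6 of 10 lay above every control (log2 fold change 0.59, SE 0.16, limma adjusted p = 0.0068). The ratio of means was 1.75, larger than the fold on the log2(TPM + 1) scale, which understates changes of low genes. Here PFNA replicates 1 and 2 were the highest libraries, the reverse of their place for Lpl. After hCG, Cd36 ran from 49.4 to 141 CPM in controls (median 78.9) and from 154 to 437 CPM with PFNA (median 270). The groups did not overlap, and PFNA replicate 5 was the lowest and replicate 3 the highest of the PFNA libraries (log2 fold change 1.61, SE 0.17, edgeR adjusted p = 8.8e-09).

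Both carriers are cytosolic binding proteins. Fabp3 (chromosome 4, 130308595 to 130315463), the heart-type binding protein, ran from 26.2 to 56.6 TPM in maturation controls and from 20.6 to 64.6 TPM with PFNA. The medians were 33.1 and 28.9. PFNA libraries lay on both sides of the control range, 3 below it and 1, replicate 3, above it (log2 fold change -0.17, 95% interval -0.51 to 0.18, limma adjusted p = 0.48). After hCG it rose from a control median of 2.22 CPM (1.25 to 14.8) to a PFNA median of 13.1 CPM (5.31 to 15.1). Control replicate 5 stood out at 14.8 CPM, with the next control at 7.48 CPM. The log2 fold change was 1.65 (SE 0.34, edgeR adjusted p = 0.00014) and 2.07 without that library, on 18 to 306 counts per library.

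Fabp5 (chromosome 3, 10012548 to 10016607), the epidermal-type binding protein, was the member that fell during maturation. Controls ran from 200 to 338 TPM (median 274) and PFNA libraries from 133 to 303 TPM (median 163). PFNA libraries below every control numbered 7 of 10, and replicates 1 and 2 were the highest of the PFNA group (log2 fold change -0.57, SE 0.13, limma adjusted p = 0.0022). After hCG, Fabp5 rose from a control range of 40.2 to 55.1 CPM to a PFNA range of 52.0 to 80.3 CPM, with 7 of 11 PFNA libraries above every control (log2 fold change 0.32, SE 0.068, edgeR adjusted p = 0.00016). The mouse genome carries processed copies of Fabp5, and how reads shared with them were counted is not given in the sources used here.

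Plin2 (chromosome 4, 86648386 to 86670060), the perilipin that coats droplets in most cell types, rose in both windows. During maturation it ran from 3.92 to 14.5 TPM in controls (median 7.55) and from 7.39 to 30.6 TPM with PFNA (median 14.9). PFNA libraries above every control numbered 5 of 10, with replicates 8, 10 and 7 at 30.6, 27.4 and 24.5 TPM and replicate 1 lowest at 7.39 TPM. The log2 fold change was 0.98 (SE 0.24, limma adjusted p = 0.0036). After hCG it ran from 5.61 to 39.7 CPM in controls (median 23.2) and from 25.3 to 78.2 CPM with PFNA (median 37.7). The groups overlapped, with 4 of 11 PFNA libraries above every control (log2 fold change 0.89, SE 0.22, edgeR adjusted p = 0.00095). From library to library Plin2 varied widely, with a coefficient of variation between 34.9% and 46.3% in the 4 groups.

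**Figure D2:**
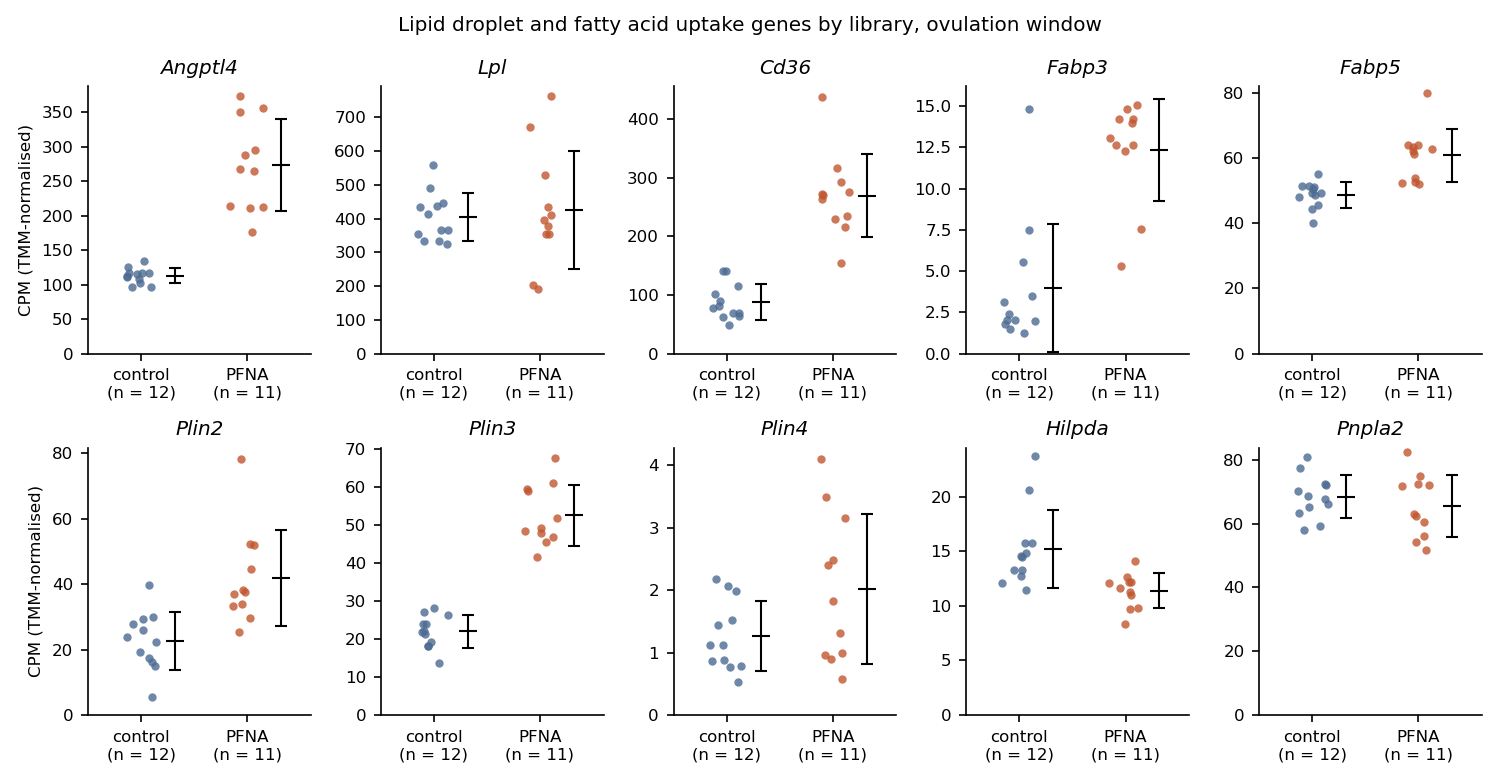
Level of each member in every ovulation library (TMM-normalised CPM, each vertical axis starting at 0) for 12 control and 11 PFNA libraries, with points for libraries and bars for mean ± SD. Angptl4, Cd36 and Plin3 show no overlap between the groups.

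Plin3 (chromosome 17, 56277476 to 56292873), a perilipin found in the cytosol that moves onto young droplets, rose after hCG. Controls ran from 13.7 to 28.1 CPM (median 22.0) and PFNA libraries from 41.5 to 67.7 CPM (median 49.4), with no overlap (log2 fold change 1.26, SE 0.10, edgeR adjusted p = 6.7e-11). During maturation no shift was detectable, with 34.4 to 88.2 TPM in controls and 36.0 to 101 TPM with PFNA (log2 fold change 0.14, 95% interval -0.35 to 0.63, limma adjusted p = 0.70). The wide interval goes with an uneven spread: 5 control and 5 PFNA libraries lay between 34.4 and 46.2 TPM, and 6 control and 5 PFNA libraries between 58.6 and 101 TPM.

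The genes that followed Plin3 most closely from library to library in the maturation window lay largely on its own chromosome, a search made after its values were seen. Genes whose mean reached 10 TPM were ranked by the smaller of their Pearson r with Plin3 within controls and within PFNA libraries. Of the 10 highest among 6497 genes, 6 were on chromosome 17, which held 5.39% of the genes ranked. First came H2-D1 (chromosome 17, 35262730 to 35267499), a class I histocompatibility gene, with r = 0.95 in controls and in PFNA libraries. Fem1a (56256810 to 56263610), Dpp9 (56186807 to 56218905) and Ticam1 (56269319 to 56276786), which lie beside Plin3, had smaller r values of 0.95, 0.91 and 0.87. H2-D1 lay between 2.51 and 8.72 TPM in the 10 libraries with the lower Plin3 and between 126 and 278 TPM in the other 11. Fem1a lay between 44.7 and 62.4 TPM in the former and between 69.8 and 128 TPM in the latter. In the ovulation window H2-D1 also ran widely, from 1.32 to 222 CPM over both groups, but its r with Plin3 was 0.28 in controls and -0.32 with PFNA. Plin4, on the same chromosome but under the mean of 1 TPM needed for testing, had an r with H2-D1 of -0.03 and -0.09 in the maturation groups. Angptl4, also on chromosome 17, had an r with H2-D1 of 0.159 in maturation controls and -0.375 with PFNA. With H2-D1 as a covariate, added after the Plin3 pattern was seen, the log2 fold change of Plin3 was 0.21. It was still not called, at a limma adjusted p of 0.052, beside 0.70 without the covariate. Why these genes move together was not tested.

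**Figure D3:**
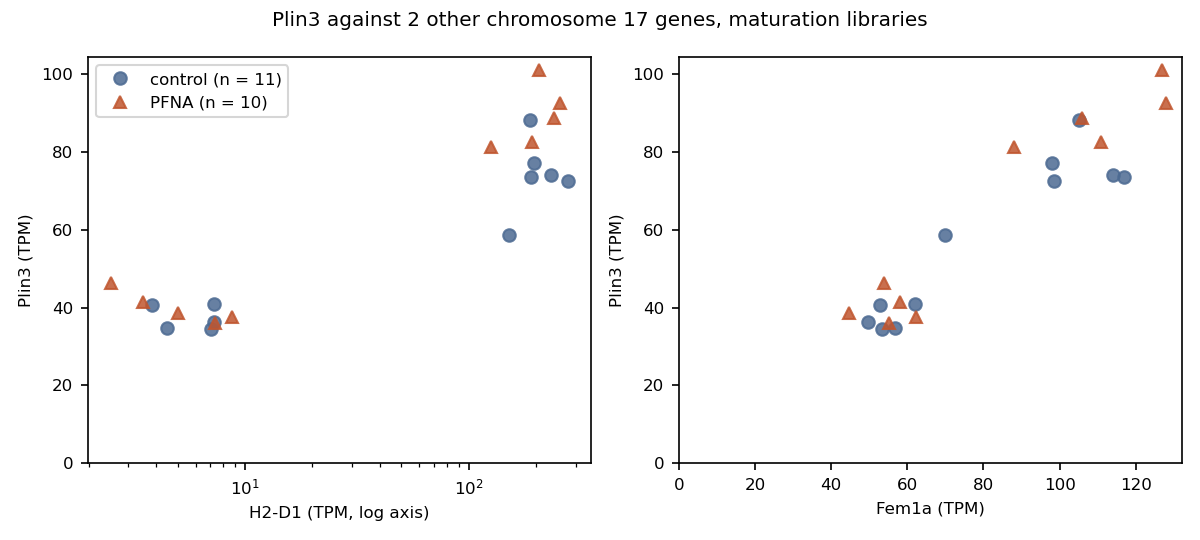
Plin3 (TPM) against H2-D1 (TPM, log axis) and Fem1a (TPM) in 11 control and 10 PFNA libraries of the maturation window, each point a library. The 10 libraries at or below 46.2 TPM of Plin3 have at most 8.72 TPM of H2-D1 and the other 11 have at least 126 TPM.

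Plin4 (chromosome 17, 56100591 to 56109803), a perilipin of adipose and muscle, was barely expressed. It ran from 0.150 to 1.31 TPM in maturation controls and from 0 to 0.855 TPM with PFNA. After hCG the ranges were 0.523 to 2.18 CPM in controls and 0.571 to 4.10 CPM with PFNA, on 7 to 71 counts. The log2 fold change was 0.66 (SE 0.32, edgeR adjusted p = 0.067). It would have been called without any one of 7 libraries (control replicates 2, 3 and 5 and PFNA replicates 1, 5, 7 and 10), with values of 0.73 to 0.76.

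Hilpda and Pnpla2 govern the release of stored fat. Hilpda (chromosome 6, 29272488 to 29275446), the inhibitor, ran from 17.4 to 37.0 TPM in maturation controls and from 27.7 to 41.6 TPM with PFNA (medians 25.8 and 29.6). The log2 fold change of 0.24 was not called (95% interval 0.01 to 0.48, limma adjusted p = 0.11), although it was without control replicate 8, with 0.29. After hCG, Hilpda was the member that fell, from a control range of 11.5 to 23.7 CPM (median 14.5) to 8.34 to 14.1 CPM (median 11.6). PFNA libraries below every control numbered 5 of 11 (log2 fold change -0.42, SE 0.12, edgeR adjusted p = 0.0024).

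Pnpla2 (chromosome 7, 141455198 to 141460743), the triglyceride lipase, had the smallest coefficient of variation of the members in maturation controls, 7.38%. It rose slightly during maturation, from a range of 85.3 to 105 TPM (median 95.3) to 89.6 to 136 TPM (median 111), with 7 of 10 PFNA libraries above every control (log2 fold change 0.24, SE 0.066, limma adjusted p = 0.0088). After hCG the medians were 68.2 CPM in controls and 63.0 CPM with PFNA, and the log2 fold change was -0.06 (95% interval -0.22 to 0.09, edgeR adjusted p = 0.47).

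Macrophages are known to express Cd36, Lpl and Plin2, and endothelium Cd36, so the calls were repeated with the marker levels taken into account. With the log2 oocyte share as a covariate 2 members, Angptl4 (1.87) and Cd36 (0.82), were called in the maturation window. The log2 fold changes of those that lost their call were 0.80 for Plin2, 0.24 for Lpl, -0.36 for Fabp5 and 0.26 for Pnpla2. Oocyte share and group moved together and cannot be told apart well. Without PFNA replicates 1, 2 and 10, a fit added after their oocyte share was seen, the same 6 members were called. In that fit every PFNA library is below every control in oocyte share, so share and group cannot be told apart and it does not bear on the oocyte share. With the macrophage sum as a covariate, also added then, Lpl lost its maturation call (0.49, limma adjusted p = 0.053). Plin2 kept its call with 0.65. With the endothelial sum, added too, the same 6 members were called in the maturation window, with 0.52 for Lpl and 0.79 for Plin2. In the ovulation window the 7 called members remained called with the oocyte share, the macrophage sum or the endothelial sum. There Plin2 had 0.54 with the endothelial and 0.58 with the macrophage sum, and Cd36 had 1.69 and 1.53.

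Whether a member responded differently in the windows was tested as the PFNA effect in the ovulation window minus that in the maturation window (limma within each table, log2 values with a pseudocount of 1). The difference passed for 8 of the 9 members measured in both, beside 67.7% of 11215 genes. The effect was higher after hCG for 4 members (32% of all genes): Fabp3 (difference 1.82, SE 0.31), Plin3 (1.09, SE 0.26), Cd36 (1.03, SE 0.23) and Fabp5 (0.87, SE 0.14). For Fabp5 the effect turned from a fall to a rise. It was lower after hCG for Angptl4 (-0.78, SE 0.13), Hilpda (-0.62, SE 0.15), Lpl (-0.59, SE 0.24) and Pnpla2 (-0.31, SE 0.10), with limma adjusted p between 1.8e-06 and 0.027 over the 8 genes. Plin2 had a difference of -0.06 (SE 0.33, limma adjusted p = 0.87), which does not show that its effects were equal. Genes higher with PFNA in both windows made up 6.06% of the genes measured in both, and Angptl4, Cd36 and Plin2 were the 3 members among them.

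**Figure D4:**
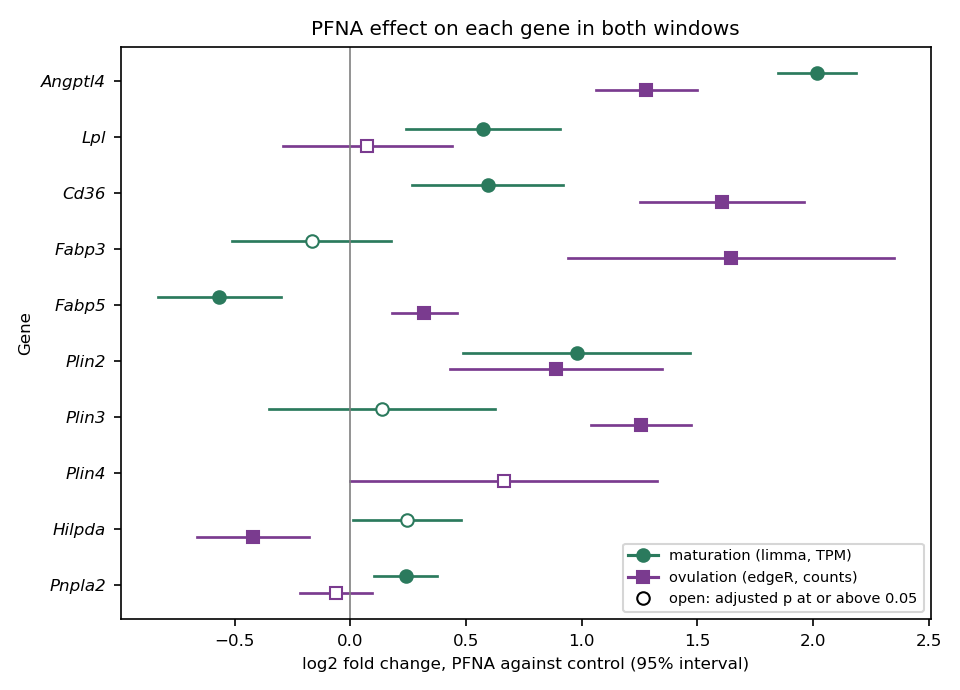
PFNA effect on each member as log2 fold change with its 95% interval (horizontal axis), in the maturation window on log2(TPM + 1) and in the ovulation window on counts, with open symbols where the adjusted p was 0.05 or more. Plin4 has no maturation value, and Fabp5 lies at -0.57 in the maturation window and 0.32 in the ovulation window.

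The members' ties to Angptl4 were measured within each group, since PFNA shifts Angptl4 and a pooled correlation would show that shift. Of 36 pairs (9 genes in 4 groups), 0 had a permutation p (100000 resamples, two-sided) that passed after Benjamini-Hochberg adjustment, by Pearson or by Spearman, and 3 had an unadjusted p under 0.05 by either. Hilpda gave 2 of these. In the 11 PFNA libraries of the ovulation window its r with Angptl4 was 0.79 (rho 0.69, permutation p = 0.0031 and 0.022, adjusted p = 0.11 and 0.33), and 0.55 without the 2 libraries farthest from the Angptl4 median. In the 11 maturation controls r was 0.72 (rho 0.67, permutation p = 0.014 and 0.028, adjusted p = 0.25 and 0.33), and 0.52 without 2 libraries. In the other groups Hilpda had r = 0.44 (maturation PFNA) and -0.21 (ovulation control). Pnpla2 gave the third, with r = 0.67 and rho = 0.67 in ovulation PFNA libraries (permutation p = 0.027 for each, adjusted p = 0.33 for each) and r = 0.77 without 2 libraries. With all libraries the other 33 pairs lay between -0.49 and 0.52, and some left that range without the 2 libraries farthest from the Angptl4 median. Fabp5 in ovulation controls went from -0.33 to 0.68 and Lpl in maturation PFNA libraries from 0.20 to 0.63. Among ovulation PFNA libraries Fabp3 went from -0.47 to -0.64 and Plin3 from -0.41 to -0.62. Plin2 and Cd36, which rose with Angptl4 in both windows, had r from -0.18 to 0.49 and from 0.04 to 0.40 within the groups. The labels give no batch within which these could be recomputed.

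**Figure D5:**
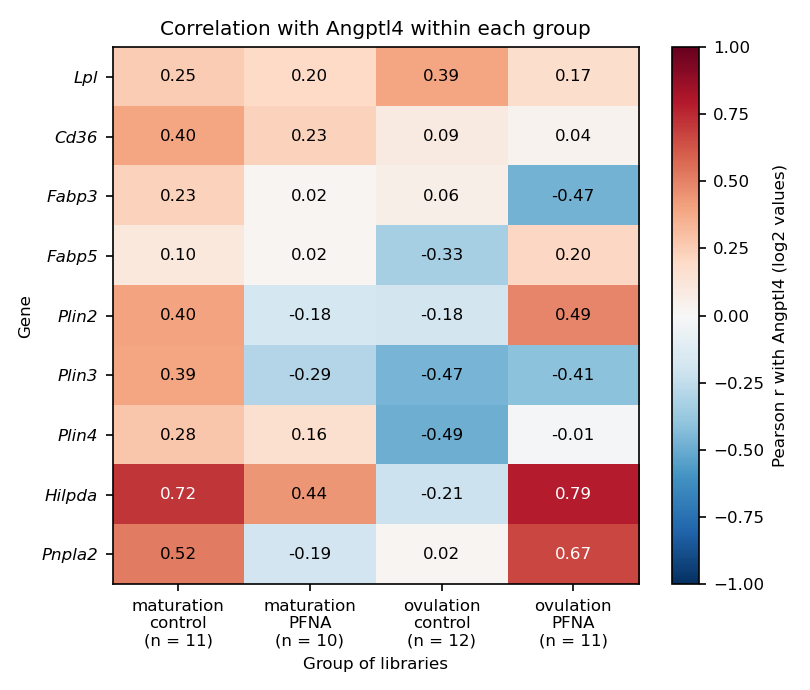
Pearson r of each member with Angptl4 on log2 values (colour and printed number) within each of the 4 groups of libraries. Hilpda has r = 0.72 in maturation controls and 0.79 in ovulation PFNA libraries, and no pair passed after adjustment.

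By the same measure of likeness, the genes that followed Angptl4 most closely were Lrfn4, Jmjd8 and Slc39a1 in the maturation window (smaller r 0.76, 0.74 and 0.73 among 6497 genes). In the ovulation window they were Mfsd10, Lemd2 and Rcl1 (0.78, 0.77 and 0.76 among 8872 genes whose mean reached 10 CPM). None was shared between the windows. Jmjd8 and Lemd2 lie on chromosome 17, as Angptl4 does, and 5.39% of the genes ranked in the maturation window lie there. A link to the chromosome was not tested. These r values are the highest of many and are a description of 21 and 23 libraries, which share their scaling.

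Other genes of the pathway were read from 3 lists, also chosen with earlier results of these data known. Of 30 genes of droplet coat and assembly, 20 were tested in the maturation window, with 5 higher and 5 lower (median log2 fold change 0.09), where 13.3% of all genes were higher and 16.1% lower. Plin1, the perilipin of large droplets and steroid-producing cells, was at 2.30 to 8.11 TPM in controls and at 9.29 to 22.8 TPM in all 10 PFNA libraries, a rise of 1.53 on the log2 scale (SE 0.20, limma adjusted p = 1.7e-05). Fitm2, which helps form droplets, rose with a log2 fold change of 0.30, while Bscl2 (seipin) and Dgat2, which makes triglyceride, fell with -0.44 and -1.65. After hCG 10 of 20 rose and 6 fell (median 0.12), a share near the 73.2% of all genes called. Hsd17b11, a droplet-bound dehydrogenase, rose 11.1-fold by edgeR, to 141 to 244 CPM, and all 11 PFNA libraries lay above every control (log2 fold change 3.47). Soat2, which esterifies cholesterol, was at most 0.125 CPM in controls and between 0.714 and 3.58 CPM with PFNA. It passed the filter on low counts only through its PFNA libraries, so its place among the genes that rose depends on that filter. Pcyt1a and Lpin2, of phospholipid and glyceride synthesis, fell with log2 fold changes of -2.17 and -0.85.

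Of 28 genes of uptake, carriage and activation, 18 were tested in the maturation window, with 3 higher and 2 lower (median 0.02), a share near the 29.4% of all genes called. The transport proteins Slc27a1 and Slc27a4 rose with log2 fold changes of 0.32 and 0.23, and the acyl-CoA binding protein Dbi and the synthetase Acsl3 fell with -0.49 and -0.22. After hCG 5 of 19 rose and 10 fell (median -0.37), again near the 73.2% called over all genes. Slc27a1 rose again, from 13.4 ± 3.46 to 59.3 ± 7.76 CPM (SD, n = 12 and 11, log2 fold change 2.14), as did Cav1 with 1.67. Slc27a4 fell with -1.11 and Slc27a3 with -3.65, from 141 ± 56.1 to 11.2 ± 3.47 CPM. Of 25 genes of lipolysis, 19 were tested in the maturation window. By limma 5 rose, among them Pnpla7 (0.50) and Pnpla8 (0.27), and 0 fell, or 1 at an unadjusted p under 0.05 (median 0.03). After hCG 9 of 21 rose and 5 fell (median 0.27). Both shares called in either direction are near those of all genes, 29.4% and 73.2%. By direction, 13.3% of all genes were higher and 16.1% lower in the maturation window. The hormone-sensitive lipase Lipe fell from 11.7 ± 2.07 to 2.35 ± 0.795 CPM (log2 fold change -2.31) and the kinase subunit Prkaca fell with -0.82, while Hspa8 and Abhd12 rose with 1.52 and 1.09.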

How the data were processed

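RNA was selected by poly-A and copied with random primers, per the labels' protocols. Partek, Bowtie2 and HISAT2 are named in the submitters' processing notes without a role. The aligner settings, annotation and use of strand are not given in the sources used here. For the maturation window the authors deposited TPM, scaled to 1 fixed total per library (found from the values, since the table is named as raw counts), so its depth is unknown. For the ovulation window the authors deposited estimated counts, with totals of 10.6 to 19.5 in units of 1e+06, which were rounded to whole numbers. Starts in the maturation table matched GENCODE M21 (GRCm38) for 99.4% of symbols and in the ovulation table for 37.2%, so gene models differ and levels were not compared across tables. Coordinates are 1-based, from the maturation table.

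Each column was matched to its sample's title. The column taken as maturation control replicate 6 is spelled with another letter, and the samples include no maturation control replicate 4. Counts were tested with edgeR 4.0.16 (TMM, filterByExpr, quasi-likelihood, robust) and TPM with limma 3.58.1 on log2(TPM + 1), trend and robust, for genes whose mean reached 1 TPM, in R 4.3.3. P-values were adjusted by Benjamini-Hochberg over each whole table, and an adjusted p under 0.05 was called. Window differences used Satterthwaite's degrees of freedom, and edgeR standard errors are the fold change over the root of F. The fits were tested on simulated data. Members, the 3 lists and markers were chosen with earlier results of these data known. All members are named, with the 2 higher and 2 lower called genes of smallest p per list and window and the 3 genes most like Angptl4. Alternatives were DESeq2 1.42.0, other scalings, pseudocounts and filters, covariates, a replicate block and leaving out each library.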

Additional observations from a re-analysis of the deposited data

Results flagged for a closer look

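For each of the 10 members, the 10 maturation PFNA libraries were tested with Dixon's criterion for a single library far from the rest, which chance meets in about 1 of 20 groups. Fabp3 met it, with 64.6 TPM in PFNA replicate 3 and 36.2 TPM in the next library.

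The PFNA effect differed between the windows, by limma's test of the difference, for 8 members, where 67.7% of 11215 genes passed the same test. On the log2 scale the effect in the ovulation window minus that in the maturation window was -0.78 for Angptl4, -0.62 for Hilpda, -0.59 for Lpl and -0.31 for Pnpla2, and 1.82 for Fabp3, 1.09 for Plin3, 1.03 for Cd36 and 0.87 for Fabp5. Each window came in its own table, in its own unit and with its own gene models, so a window and its table cannot be told apart.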

How the results depend on the processing

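Over the alternatives run, 825 of 849 values kept their direction and their side of the threshold, or for counts stayed within 1.5 times. With a covariate for oocyte share, the genes called in the maturation window moved from 4030 to 594 and the members called from 6 to 2. Leaving out each library in turn gave 3583 to 4585 genes and 6 to 7 members in the maturation window and 9654 to 10029 genes and 7 to 8 members in the ovulation window. Uncalled log2 fold changes that changed sign were those of Plin3 in the maturation window (-0.065 with the oocyte share, -0.0086 with the endothelial sum and -0.0098 with the macrophage sum as a covariate) and of Lpl in the ovulation window (-0.045 with the replicate block, -0.013 without PFNA replicate 5, -0.047 without PFNA replicate 6, in a range of -0.047 to 0.15 over single libraries left out, and -0.0032 with the macrophage sum). The cause was not tested. Libraries share only a replicate number: deviations correlated above 0.1 in 1 of 9 same-numbered maturation pairs and 0 of 11 ovulation pairs, and 1 of 18 maturation libraries and 0 of 22 ovulation libraries correlated best with its own number. With the replicate block 2898 genes and 4 members were called in the maturation window, where Cd36 (0.53) and Pnpla2 (0.24) were not called, and 9298 genes and 7 members in the ovulation window. Plin4 rests on few counts, and the depth behind TPM is unknown.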
